A study of Mus musculus with 6 samples.

Results

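The actin cytoskeleton and motility genes are 43 genes that encode actins, the proteins that bundle and assemble actin filaments, the linkers to membrane and matrix, the contractile machinery and the small GTPases that steer it. They were picked by gene symbol in the array's platform annotation, using probe sets with a single symbol and the brightest such probe set per gene. Of the 43, 42 were measured, out of 19938 genes tested. Actg1, a cytoplasmic actin, was not measured because its probe sets also carry the symbol of Actb. Levels are given as log2(intensity + 16) after quantile normalization, and a gene was called when its limma p-value, adjusted over all genes with the Benjamini-Hochberg method, was below 0.05.

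Expression was measured on 6 Affymetrix arrays of keratinocytes, the epithelial cells of the epidermis, grown from the skin of C57BL/6 mice at stage E18.5. The 3 genotypes had 2 arrays each and each array held RNA pooled from 2 mice, so an array is the unit of replication and single animals cannot be told apart. DKO keratinocytes carried Ovol2flox/-, the K14-Cre transgene, which is driven in basal keratinocytes, and Ovol1-/-. Ovol1 KO keratinocytes were Ovol1-/-, with no Ovol2 allele named in the labels. Control keratinocytes were Ovol2flox/+ with either Ovol1+/- or K14-Cre, so controls were not wild type at these genes. Cells of every group were cultured, given calcium, which makes keratinocytes differentiate, and cultured further before the RNA was taken. Ovol1 and Ovol2 encode zinc finger repressors that keep epithelial cells epithelial, and the comparisons asked how expression differs when Ovol1 alone or both genes are lost.

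Actin monomers polymerise into filaments that are branched by the Arp2/3 complex, severed by cofilin, bundled by proteins such as fascin and the alpha-actinins, and pulled on by nonmuscle myosin. In keratinocytes these filaments anchor at focal adhesions, on the matrix side, and at adherens junctions, on the side of the neighbouring cell, and they drive the protrusions of cells that migrate into a wound. Many genes of the contractile apparatus are targets of serum response factor, which binds a promoter element called the CArG box.

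Arrays of all groups carried the basal keratins of the labelled cell type. Krt5 lay between 13.7 and 13.9 and Krt14 at 13.6 or 13.7 on every array. Krt1, a keratin of differentiating keratinocytes, lay at 14.7 and 12.4 in DKO, against 8.97 and 9.27 in Ovol1 KO and 9.48 and 9.33 in control. Ovol1 lay at 10.58 and 10.59 in DKO, 10.53 and 10.22 in Ovol1 KO, and 10.27 and 9.85 in control. Ovol2 lay at 8.71 and 8.32 in DKO, 9.005 and 8.99 in Ovol1 KO, and 8.12 and 8.82 in control. Neither targeted gene was lower than in control in the groups labelled as lacking it, and whether its probe set lies in the deleted part is not given in the sources used here, so the groups are called by their labels. The arrays are all labelled female, but Xist, expressed from the inactive X chromosome, lay at 12.12 and 12.26 in DKO, 4.59 and 11.97 in Ovol1 KO, and 4.71 and 4.65 in control. Both DKO arrays and Ovol1 KO 2 were therefore high in Xist and the other 3 arrays low. Those 3 arrays were in turn high in genes of the Y chromosome, which goes against the female label. Eif2s3y lay at 5.28 and 5.48 in DKO, 13.89 and 5.19 in Ovol1 KO, and 13.84 and 13.27 in control. Kdm5d lay at 7.53 and 7.64 in DKO, 14.70 and 7.50 in Ovol1 KO, and 14.70 and 14.70 in control. Uty showed the same split. Genotype and the sex-linked split cannot be told apart between DKO and control.

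Promoter sequence is shown for the member called in 2 comparisons (Fscn1), for the members with a CArG box upstream of their start (Myl9, Cnn2, Vcl and Rnd3) and for the member with an upstream core of the Ovol binding sequence (Cdc42). The sequences come from RefSeq's table of build GRCm38.p6, run 5′ to 3′ in the direction of transcription and end before the transcription start. Fscn1 and Myl9 are given for the 250 bases up to the start and the others for 60 bases around the match. Capitals mark the CArG box in Myl9, Cnn2, Vcl and Rnd3, the Ovol core in Cdc42 and the TATA core in Fscn1.
Fscn1, chr5:142960105-142960354, plus strand: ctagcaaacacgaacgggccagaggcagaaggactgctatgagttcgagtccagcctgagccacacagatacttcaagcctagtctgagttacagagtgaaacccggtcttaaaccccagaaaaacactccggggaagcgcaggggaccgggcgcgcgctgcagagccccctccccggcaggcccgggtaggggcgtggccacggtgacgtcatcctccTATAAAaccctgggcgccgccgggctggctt
Myl9, chr2:156775214-156775463, plus strand: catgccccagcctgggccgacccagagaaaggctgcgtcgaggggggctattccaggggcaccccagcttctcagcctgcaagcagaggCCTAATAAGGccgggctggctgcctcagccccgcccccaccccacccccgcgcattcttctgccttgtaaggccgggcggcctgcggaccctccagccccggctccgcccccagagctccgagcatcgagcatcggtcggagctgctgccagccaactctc
Cnn2, chr10:79988519-79988578, plus strand: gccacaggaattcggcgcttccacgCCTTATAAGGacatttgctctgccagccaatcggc
Vcl, chr14:20929148-20929207, plus strand: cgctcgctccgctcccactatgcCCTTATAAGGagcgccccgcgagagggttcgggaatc
Rnd3, chr2:51149177-51149236, minus strand: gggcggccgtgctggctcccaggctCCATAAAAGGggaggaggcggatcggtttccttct
Cdc42, chr4:137357845-137357904, minus strand: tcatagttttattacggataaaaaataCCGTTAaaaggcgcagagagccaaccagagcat

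Windows of 300 bases, from 250 bases before to 50 after the start, were held for 36 of the 42 members and for 15563 of the genes tested. They were searched on both strands for 6 motifs, which were chosen with the values known. Of the members, 4 had several windows, and a gene was counted once if any of its windows held the motif. The members with no window, and so not searched, were Actb, Cttn, Pxn, Tagln, Rac1 and Svil. The CArG box was searched as CC, then 6 letters that are each A or T, then GG. Near matches, such as ccctatatgg in Acta2, were not counted. The exact box was found in 4 members, or 11.1%, against 1.63% of all genes with a window. It began 161 bases before the start in Myl9, 56 in Cnn2, 227 in Vcl and 100 in Rnd3. The Ovol core, CCGTTA, was found in 2 members, Cdc42 and Msn, or 5.56%, against 3.59% of those genes. In Cdc42 it began 118 bases before the start, and in Msn it lay after the start. The Sp1 core, GGGCGG, was found in 83.3% of the members against 53.0% of those genes, and the TEAD core, GGAATG, in 27.8% against 15.1%. The AP-1 site, TGANTCA, was found in 11.1% against 8.06%, and the TATA core, TATAAA, in 16.7% against 13.6%. In the Fscn1 stretch TATAAA began 31 bases before the start. A CArG box can hold the letters TATAAA within it, but none of the 4 found in members did. These matches are letters in a window and say nothing of whether a factor binds there.

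In DKO against control, fascin (Fscn1), the alpha-actinins (Actn1 and Actn4), cortactin (Cttn) and the adhesion protein Lasp1 fell, and Enah, an elongation factor of the Ena/VASP family, rose. Thus 6 of 42 members were called, 5 lower and 1 higher, or 14.3%. Over all genes, 3.2% were called in this comparison, 2.26% as lower and 0.943% as higher. At an unadjusted p below 0.05, 21 of the 42 members passed, against 14.5% of all genes. The log2 fold change was below 0 for 38 of the 42 members, against 45.7% of all genes, with a median of -0.38, against a median of 0.02 over all genes tested. The lowest and highest values were -2.08 for Cnn1 and 0.66 for Enah. The count of 6 was lower without DKO 1, control 1 or Ovol1 KO 1, and so was the share of all genes called. Each of those fits leaves 1 array in a group. The members' median was -0.20 without DKO 1.

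**Figure D1:**
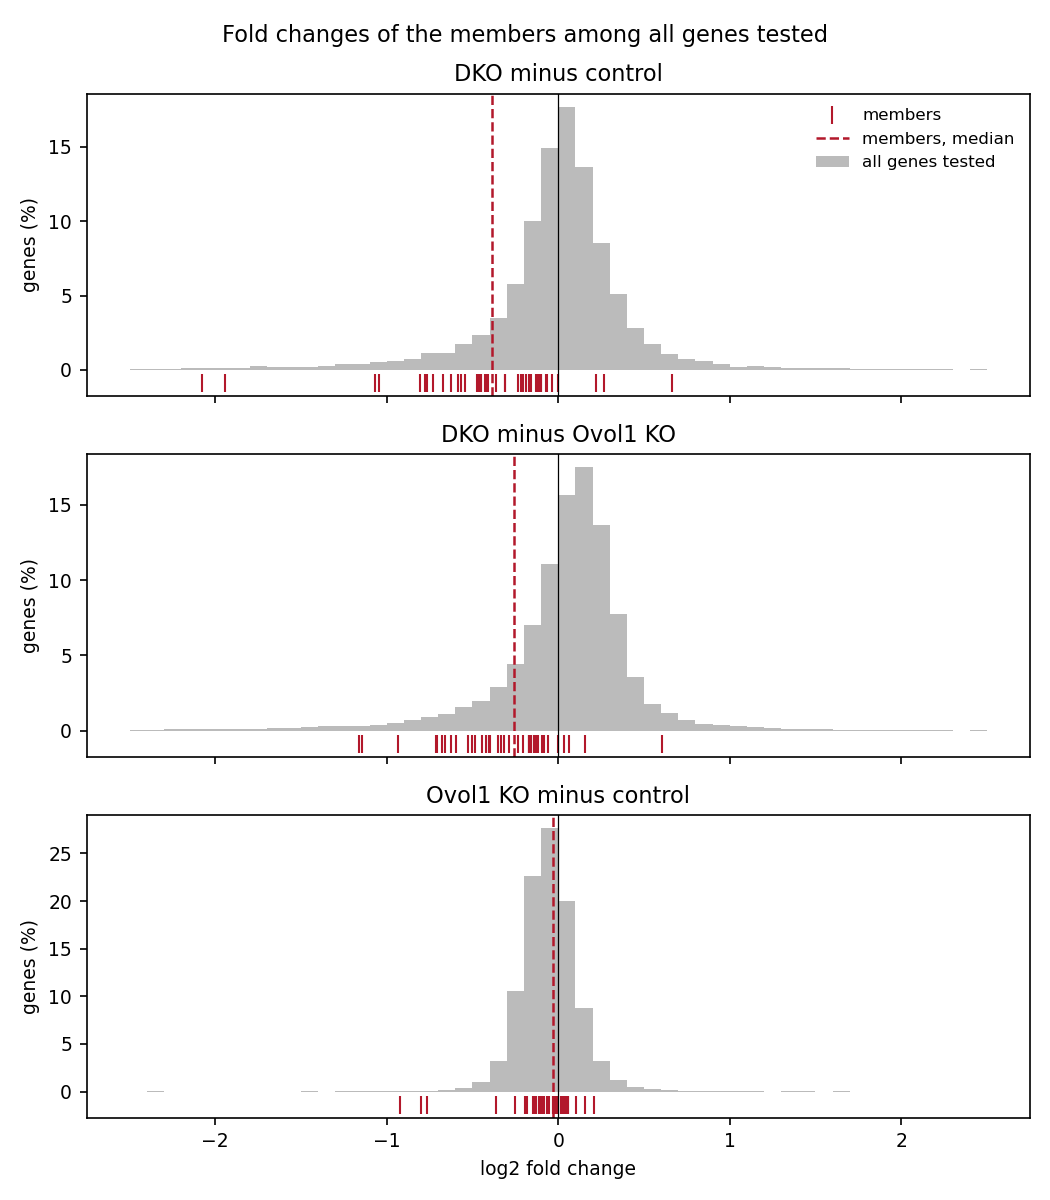
Share of all 19938 genes (grey bars, % of genes) by log2 fold change in each of the 3 comparisons, with the 42 members as ticks below and their median as a dashed line; genes outside -2.5 to 2.5 are not drawn. The medians of the members lie at -0.38 for DKO minus control, -0.03 for Ovol1 KO minus control and -0.26 for DKO minus Ovol1 KO.

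The groups did not overlap for 33 members in this comparison. In 32 of them both DKO arrays were below both control arrays, where 21.5% of all genes had that pattern, and in 1 (Enah) both were above, where 23.1% did. Most members are bright genes, 38 of 42 being among the 4985 genes with a mean level of at least 9.90, a set taken after the values were seen. Over those bright genes the median log2 fold change in DKO against control was -0.34 for the 38 members and 0.01 for all 4985, and 15.8% of these members and 5.24% of these genes were called. An unadjusted limma p below 0.05 was found for 52.6% of these members and 23.6% of these genes. Both DKO arrays were below both controls in 30 of the 38 members and in 1521 of the 4985 genes. In bulk samples such as these, fewer cells of a type and less RNA per cell cannot be told apart.

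The actins themselves did not pass the test. Actb, a cytoplasmic actin of all cells, lay at 13.86 and 13.99 in DKO, 13.99 and 14.03 in Ovol1 KO, and 14.03 and 13.96 in control. Acta2, the smooth muscle actin that also marks contractile stress fibres, lay at 12.29 and 13.41 in DKO, 12.62 and 13.01 in Ovol1 KO, and 13.12 and 13.00 in control. The DKO arrays stood on either side of the other 4 for Acta2. The log2 fold changes in DKO against control were -0.07 (SE 0.06) for Actb and -0.22 (SE 0.33) for Acta2. The probe sets that carry both Actg1 and Actb were not tested. Their differences between DKO and control ran from -0.18 to -0.12, and in each both DKO arrays were below the other 4.

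Of the 4 bundlers and cross-linkers, 3 fell in DKO against control and all 4 passed at an unadjusted p of 0.05. Their median log2 fold change was -0.59. Fscn1, which packs filaments into the parallel bundles of filopodia, lay at 11.68 and 11.68 in DKO, 12.26 and 12.51 in Ovol1 KO, and 12.66 and 12.84 in control. It averaged 11.68 ± 0.003 in DKO and 12.75 ± 0.12 in control (SD, n = 2 each), which is 2.10-fold lower, or -1.07 on the log2 scale (SE 0.12, limma adjusted p = 0.0075). Both DKO arrays were below every other array, and both Ovol1 KO arrays were below both controls. The call was lost without DKO 1 (adjusted p = 0.055). Actn1, an alpha-actinin that cross-links filaments in stress fibres and at adhesions, lay at 12.19 and 12.54 in DKO, 13.12 and 12.96 in Ovol1 KO, and 13.17 and 13.12 in control. Its log2 fold change was -0.78 (SE 0.13, adjusted p = 0.027), or 1.71-fold lower, and DKO 1 was the lowest of the 6 arrays. The call was lost without DKO 1 (adjusted p = 0.092) and without Ovol1 KO 1 (adjusted p = 0.051).

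Actn4, the other nonmuscle alpha-actinin, lay at 12.89 and 12.91 in DKO, 13.20 and 13.24 in Ovol1 KO, and 13.31 and 13.31 in control, and its log2 fold change was -0.41 (SE 0.07, adjusted p = 0.025). The DKO arrays were below all others and the Ovol1 KO arrays lay between DKO and control. The call was lost without DKO 1 (adjusted p = 0.14), DKO 2 (0.11), control 1 (0.10) or control 2 (0.066). Flna, which cross-links filaments into orthogonal networks and is X-linked, did not pass. It lay at 11.89 and 12.17 in DKO, 12.53 and 12.19 in Ovol1 KO, and 12.46 and 12.32 in control, a difference of -0.36 on the log2 scale (SE 0.15, adjusted p = 0.34).

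**Figure D2:**
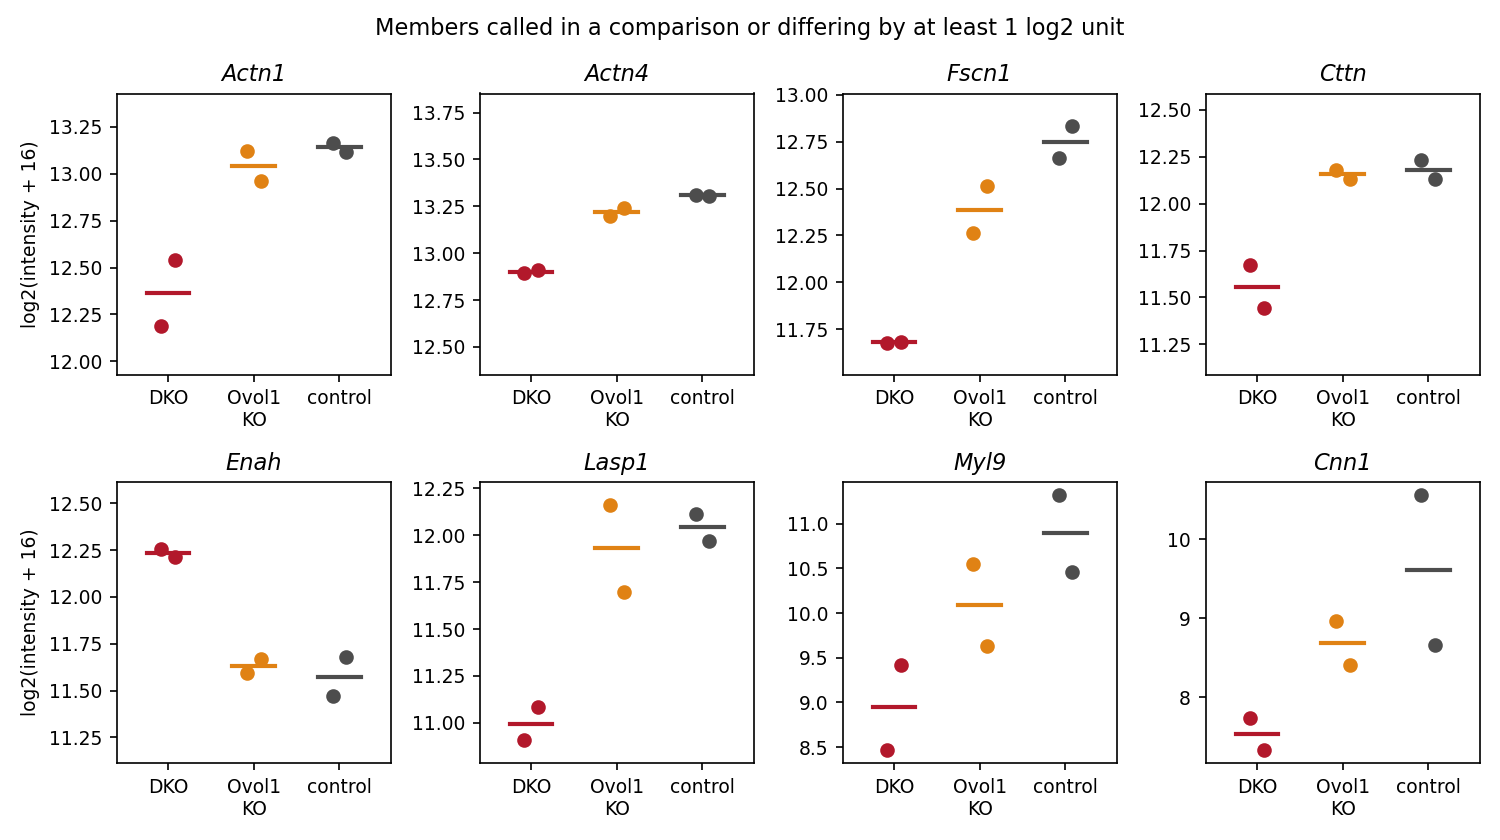
Level in each array (points) and group mean (lines), as log2(intensity + 16), of the members called in a comparison or differing by at least 1 log2 unit, each gene on its own vertical scale. The DKO points of Fscn1 lie together at 11.68, below the 12.26 to 12.84 of the other arrays, and those of Enah lie at 12.21 and 12.26, above the other arrays.

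Among the 6 assembly factors 1 fell, and the median log2 fold change was -0.18. Cttn, cortactin, which binds the Arp2/3 complex and steadies branched filaments, lay at 11.67 and 11.44 in DKO, 12.18 and 12.13 in Ovol1 KO, and 12.23 and 12.13 in control. Its log2 fold change in DKO against control was -0.62 (SE 0.12, adjusted p = 0.044), or 1.54-fold lower. The DKO arrays were below all others, while Ovol1 KO and control arrays lay together. The call was lost with any 1 of the 6 arrays left out, and the adjusted p then ran from 0.070 without control 2 to 0.19 without DKO 2. Wasl, the N-WASP protein that activates Arp2/3, lay at 10.80 and 10.91 in DKO, 11.84 and 11.29 in Ovol1 KO, and 11.65 and 11.52 in control, and its log2 fold change, -0.73 (SE 0.20, adjusted p = 0.13), was the lowest of the 6 but not called.

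The other assembly factors had small differences. Cfl1, cofilin, which severs old filaments, had a log2 fold change of -0.19 and Pfn1, profilin, which feeds monomers to growing ends, one of -0.17. The Arp2/3 subunits Arpc2 and Arpc5 had values of -0.10 and -0.10. None of these was called.

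The 3 membrane linkers, which tie filaments to the plasma membrane, were all below control in DKO and none was called. The median log2 fold change was -0.31, and 2 passed at an unadjusted p of 0.05. Msn, moesin, which is X-linked, lay at 11.83 and 12.17 in DKO, 12.66 and 12.38 in Ovol1 KO, and 12.75 and 12.59 in control. Its log2 fold change was -0.67 (SE 0.15, adjusted p = 0.074), and both DKO arrays were below the other 4. Ezr, ezrin, of apical membranes, had a log2 fold change of -0.31 (adjusted p = 0.26) and Rdx, radixin, one of -0.20.

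The 8 focal adhesion genes held both directions of call. Lasp1, a LIM and SH3 domain protein of adhesions and leading edges, lay at 10.91 and 11.08 in DKO, 12.16 and 11.70 in Ovol1 KO, and 12.12 and 11.97 in control. It was 2.07-fold lower in DKO than in control, or -1.05 as log2 (SE 0.18, limma adjusted p = 0.030), and both DKO arrays were below every other array. The call was lost without DKO 1 (adjusted p = 0.17), DKO 2 (0.097) or control 1 (0.071). Enah, which encodes Mena and extends filaments at leading edges, lay at 12.26 and 12.21 in DKO, 11.59 and 11.67 in Ovol1 KO, and 11.47 and 11.68 in control. Its log2 fold change was 0.66 (SE 0.12, adjusted p = 0.037), or 1.58-fold higher, and it was the 1 member with both DKO arrays above the other 4. The call was kept without control 2 only, and without any other single array the adjusted p ran from 0.068 to 0.20.

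Vasp, the other Ena/VASP protein of the list, lay at 9.81 and 9.91 in DKO, 10.16 and 10.27 in Ovol1 KO, and 10.38 and 10.26 in control, so its DKO arrays were below the rest where those of Enah were above. Its log2 fold change was -0.46 (SE 0.16, adjusted p = 0.25) and was not called. The structural proteins of the plaque were below control by like amounts without being called. The log2 fold changes were -0.45 for vinculin (Vcl), -0.43 for talin (Tln1) and -0.47 for paxillin (Pxn). Pdlim7, a PDZ and LIM scaffold on stress fibres, had -0.80 (SE 0.25, adjusted p = 0.18), at 9.84 and 10.30 in DKO, 10.98 and 10.47 in Ovol1 KO, and 11.01 and 10.73 in control. Zyx, zyxin, a sensor of strain on filaments, lay at 11.40 and 12.15 in DKO, 11.55 and 11.69 in Ovol1 KO, and 11.48 and 11.54 in control, and only DKO 2 stood above the others. The median over the 8 genes was -0.46.

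The 14 contractile genes held the largest fold changes of the members and no call. By limma 0 passed after adjustment, while 7 of 14 had an unadjusted p below 0.05, against 14.5% of all genes, and the median log2 fold change was -0.48. Cnn1, calponin 1, a filament-binding protein typical of smooth muscle and myofibroblasts, lay at 7.74 and 7.33 in DKO, 8.97 and 8.41 in Ovol1 KO, and 10.56 and 8.66 in control. The log2 fold change was -2.08 (SE 0.57, adjusted p = 0.13). Both DKO arrays were the lowest, but the controls differed by more than 1 log2 unit and control 1 was far above control 2. Without control 2 the log2 fold change was -3.03 (adjusted p = 0.0021) and without control 1 it was -1.13 (adjusted p = 0.19).

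Myl9, the regulatory light chain that switches nonmuscle and smooth muscle myosin on, lay at 8.46 and 9.42 in DKO, 10.55 and 9.63 in Ovol1 KO, and 11.32 and 10.46 in control. The log2 fold change was -1.95 (SE 0.46, limma adjusted p = 0.084). Myl9 was called without control 2 but in no other fit with 1 array left out. Both DKO arrays were below the other 4, and Ovol1 KO 1 lay just above control 2. Tagln, transgelin, another smooth muscle protein, overlapped between the groups at 9.13 and 10.10 in DKO, 9.99 and 9.24 in Ovol1 KO, and 10.99 and 9.77 in control.

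Cnn2, a calponin of nonmuscle cells, differed by -0.76 on the log2 scale (SE 0.17, adjusted p = 0.075), at 11.63 and 12.17 in DKO, 12.47 and 12.58 in Ovol1 KO, and 12.62 and 12.71 in control. Cald1, caldesmon, which restrains myosin on filaments, had -0.58, tropomyosin Tpm1 -0.57 and the heavy chain of nonmuscle myosin, Myh9, -0.55. Without DKO 2, where DKO 1 stands alone and is assumed to vary like the other groups, Cnn2 (-1.04, adjusted p = 0.028), Tpm1 (-0.94, 0.037) and Cald1 (-0.90, 0.048) were called. The other calponin, Cnn3, had -0.42. The remaining tropomyosins, which coat filaments and set access for myosin, had -0.31 for Tpm2, -0.23 for Tpm4 and -0.13 for Tpm3, and Tagln2 had -0.16. Myh10, the other nonmuscle heavy chain, had 0.00 and Svil, supervillin, which links filaments to membrane, 0.22. Tpm3 has 4 probe sets of its own, and the dimmer ones gave -0.52, -0.06 and -0.02. The dimmer probe set of Myh9 gave -0.16.

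Several of these genes are also smooth muscle and stromal genes, so marker lists were set beside them. The 9 smooth muscle and myofibroblast markers had summed intensities of 2323 and 3397 in DKO, 3260 and 3166 in Ovol1 KO, and 3921 and 3485 in control, and 0 of 9 were called. In DKO against control 8 of the 9 had a log2 fold change below 0, with a median of -0.20, and 3 had an unadjusted p below 0.05. These 3 were Synpo2 (-0.83), Smtn (-0.69) and Des (-0.41), and Myh11, the smooth muscle myosin heavy chain, had -0.20. On all arrays Myh11 lay between 7.42 and 7.78 and Des between 6.54 and 7.02. The 11 fibroblast markers summed to 14600 and 13930 in DKO, 5291 and 7740 in Ovol1 KO, and 7789 and 4897 in control. This sum mostly follows the brightest of them, Vim, Fbln1 and Thy1. Fbln1 lay at 11.72 and 11.58 in DKO, 10.11 and 11.35 in Ovol1 KO, and 10.33 and 11.28 in control. Of the 11, 1 was called, Pdgfra, as lower. In DKO against control 8 of the 11 had a log2 fold change above 0 and 3 below. The median was 0.20, and 4 had an unadjusted limma p below 0.05. Thy1 lay at 10.96 and 11.23 in DKO, 9.36 and 7.84 in Ovol1 KO, and 9.86 and 8.12 in control. Col1a1, a defining fibroblast gene, lay at 8.47 and 8.91 in DKO, 8.60 and 8.44 in Ovol1 KO, and 8.43 and 8.55 in control, and Vim at 12.93 and 12.65 in DKO, 10.92 and 11.78 in Ovol1 KO, and 12.00 and 9.19 in control. The scale begins at 4 and no detection call was used, so these levels do not show whether a dim marker was expressed. The part of these lists in the contractile genes was not tested. The 5 endothelial markers summed to 377.3 and 363.6 in DKO, 1339 and 692.6 in Ovol1 KO, and 1809 and 658.5 in control. In DKO against control 3 of the 5 were below 0 and 2 above, with a median of -0.03 and 0 called. Kdr was the brightest of them in Ovol1 KO and control, at 9.95 and 8.63 and at 10.49 and 8.51, against 6.79 and 6.65 in DKO. Pecam1 was also lower in DKO, while Cdh5, Tek and Emcn differed little. The 8 melanocyte markers summed to 1875 and 1081 in DKO, 6729 and 1497 in Ovol1 KO, and 5122 and 1409 in control, with 1 called as lower. The endothelial and melanocyte sums were highest in Ovol1 KO 1 and control 1, as were Myl9 and Cnn1, and their part in those genes was not tested either.

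The small GTPases that organise the cytoskeleton gave 0 calls of 5 and 0 unadjusted p-values below 0.05 in DKO against control, with a median log2 fold change of -0.11. Rhoa, which drives stress fibres, had a log2 fold change of -0.11, Rac1, which drives lamellipodia, -0.12, and Cdc42, which drives filopodia, -0.04. The 95% intervals of these differences ran from -0.27 to 0.05 for Rhoa, from -0.33 to 0.10 for Rac1 and from -0.22 to 0.14 for Cdc42. The dimmer probe set of Rhoa gave -0.16. Rhob, a GTPase found on endosomes, lay at 9.17 and 9.88 in DKO, 9.82 and 10.07 in Ovol1 KO, and 9.95 and 10.00 in control. Rnd3, a GTPase that opposes stress fibre formation, lay at 11.03 and 12.16 in DKO, 11.52 and 11.79 in Ovol1 KO, and 11.48 and 11.85 in control. For both, DKO 1 was the lowest array of all.

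**Figure D3:**
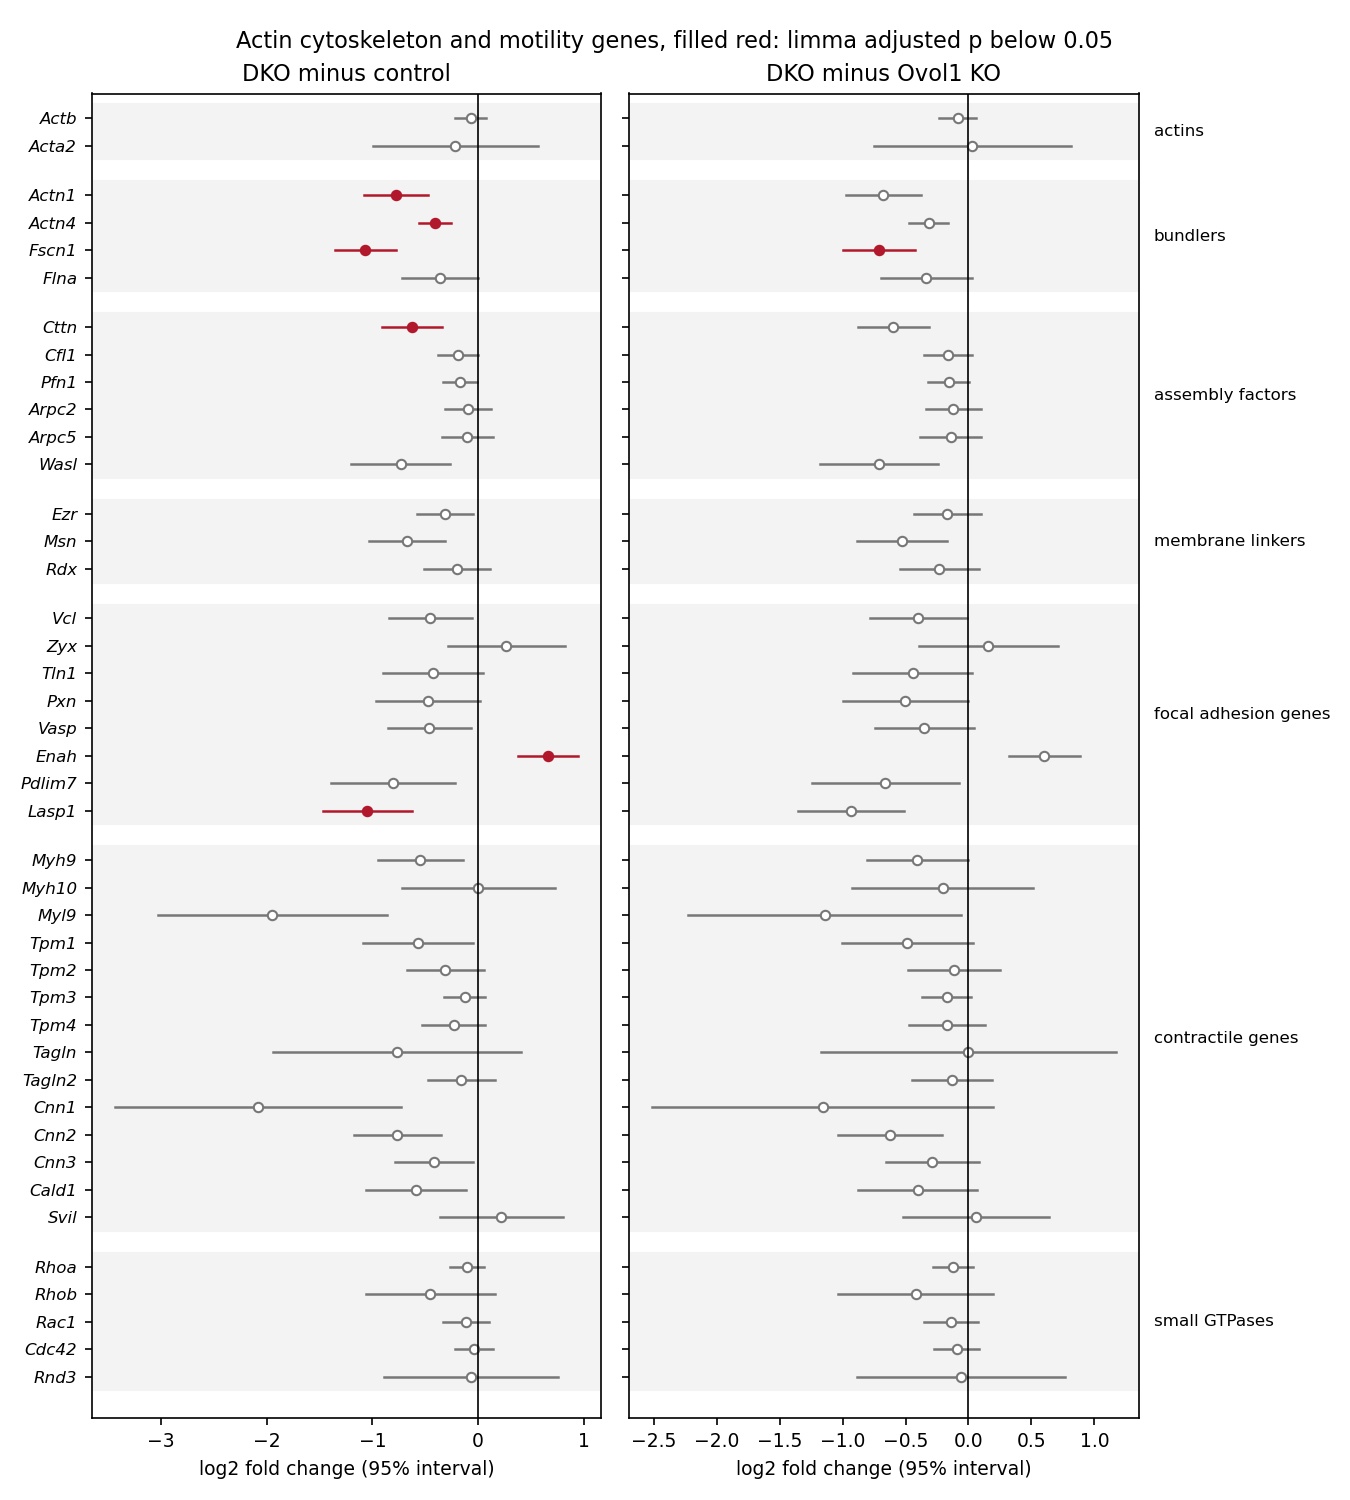
Log2 fold change (points) with its 95% interval (lines) for each member, grouped by role, for DKO minus control (left) and DKO minus Ovol1 KO (right), each with its own horizontal scale, where red filled points mark an adjusted p below 0.05. On the left 6 points are red, Fscn1, Actn1, Actn4, Cttn, Lasp1 and Enah, and on the right only Fscn1.

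Members differed between the DKO arrays. DKO 1 was below DKO 2 in 33 of 42 members, above it in 8 and equal in 1, while it was below in 52.6% of all genes, and the median of a member minus its control mean was -0.51 in DKO 1 and -0.20 in DKO 2. DKO 1 was below both controls in 40 members (39.5% of all genes) and DKO 2 in 32 (33.2% of all genes). Ovol1 KO 1 was below both controls in 14 members (55.2% of all genes) and Ovol1 KO 2 in 22 (30% of all genes). The role with the widest gap between the DKO arrays was the actins, at -0.46 in DKO 1 and 0.17 in DKO 2, followed by the focal adhesion genes at -0.65 and -0.23 and the contractile genes at -0.62 and -0.23. The actins are only 2 genes, and the gap was mostly that of Acta2, at 12.29 and 13.41, while Actb lay at 13.86 and 13.99. Bundlers lay at -0.73 and -0.50 and assembly factors at -0.17 and -0.19, closer together.

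**Figure D4:**
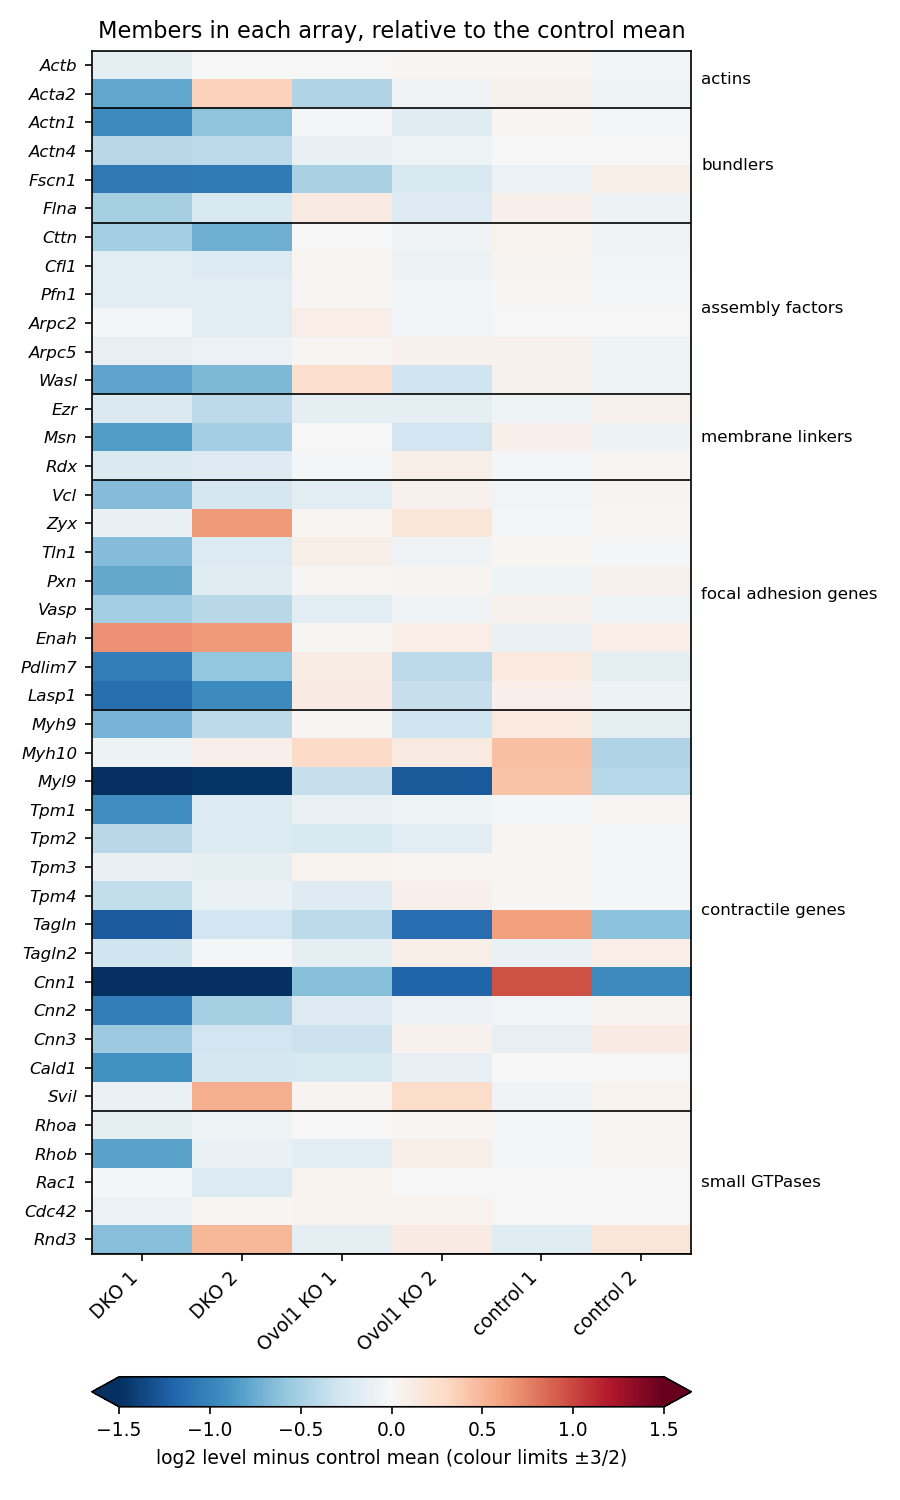
Level of each member in each array minus its control mean, in log2 units on a colour scale centred on 0, ordered by role. Blue fills most rows of both DKO columns, more so in DKO 1, and Enah is the exception that is high in both.

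Loss of Ovol1 alone gave no call. In Ovol1 KO against control, limma called 0 of 42 members, and 0% of all genes (0% higher and 0% lower). At an unadjusted p below 0.05 there were 162 genes in all and 1 member, Fscn1. Its log2 fold change was -0.36 (SE 0.12, adjusted p = 1.0). The members' median log2 fold change was -0.03, against -0.06 over all genes tested, and 28 of 42 values, or 66.7%, were below 0, the share of all genes being 65.7%. The groups did not overlap in 3 members that were higher in Ovol1 KO (Zyx, Tpm3 and Cdc42) and in 7 that were lower, where 5.8% of all genes were higher and 18.3% lower in that way. The medians by role lay between -0.14 for membrane linkers and 0.02 for small GTPases. The largest values among contractile genes were -0.92 for Cnn1, -0.80 for Myl9 and -0.77 for Tagln, each with an SE of about 0.5 log2 units.

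DKO against Ovol1 KO tests the difference between the 2 comparisons above, which share the control arrays. Fscn1 was called, as lower, by -0.71 on the log2 scale (SE 0.12, adjusted p = 0.038), and 0 of 42 members were called higher. Of all genes 2.15% were called, 1.49% lower and 0.657% higher, so 1 of 42, or 2.38%, was near the background. At an unadjusted p below 0.05, 14 members passed, against 13.3% of all genes. The values just past the threshold were -0.68 for Actn1 (adjusted p = 0.051), -0.93 for Lasp1 (0.053), 0.60 for Enah (0.064), -0.60 for Cttn (0.065) and -0.32 for Actn4 (0.070). The call of Fscn1 was lost without DKO 1, DKO 2, Ovol1 KO 1 or Ovol1 KO 2. The count of members called was lower without DKO 1 or Ovol1 KO 1 and higher without either control. The share of all genes called moved the same way in those fits. Without Ovol1 KO 2 the count was unchanged and without DKO 2 it rose, while that share fell in both.

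The members' median was -0.26, against 0.09 over all genes tested, and 38 of 42 values were below 0, against 35.6% of all genes. It was -0.45 without DKO 2 and -0.19 without DKO 1. By role the medians were -0.51 for bundlers, -0.42 for focal adhesion genes, -0.25 for contractile genes, -0.23 for membrane linkers, -0.16 for assembly factors, -0.12 for small GTPases and -0.03 for actins. Without overlap, 29 members were lower and 1 (Enah) higher in DKO, where 16% of all genes were lower and 26.1% higher in that way. Both DKO arrays were below the other 4 arrays in 27 members and above them in 1, where 13.4% of all genes were below and 16.8% above. The 27 held all 4 bundlers, all 3 membrane linkers, 5 of 6 assembly factors, 6 of 8 focal adhesion genes, 7 of 14 contractile genes and 2 of 5 small GTPases. Against Ovol1 KO 2, the array of another genotype that was likewise high in Xist, both DKO arrays were lower in 35 of 42 members and higher in 1, where 30.6% of all genes were lower and 32.5% higher.

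The other genes of the actin pathway were taken from a list of 193 genes drawn up with earlier results of these data known, of which 179 were measured. In DKO against control 16 fell and 3 rose, or 10.6% called against 3.2% of all genes, with a median log2 fold change of -0.14 over the 179 and 0.02 over all genes. The count of 19 was lower without control 1, DKO 1 or DKO 2, and so was the share of all genes called. Among the genes called, the largest falls were in an adhesion adaptor and in myosin genes. Sorbs2, an adhesion adaptor of stress fibres, fell by 2.49 on the log2 scale (adjusted p = 0.0043), at 5.80 and 5.20 in DKO against 7.89 and 8.10 in control, toward the lower end of a scale that begins at 4. Myh14, the third nonmuscle myosin heavy chain, had -2.36 (adjusted p = 0.024), at 8.13 and 7.05 in DKO against 10.21 and 9.70 in control. Myo1d, a membrane-bound class I myosin, had -2.15 (adjusted p = 0.014), at 9.70 and 10.63 in DKO against 12.18 and 12.45 in control. In all 3 genes both DKO arrays were below both controls by more than 1 log2 unit.

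The capping and bundling protein Eps8 had a log2 fold change of -1.85 and its relative Eps8l2 -1.497. Further falls were seen for Rhof, a GTPase of filopodia (-1.68), the cofilin phosphatase Ssh1 (-1.36), the matrix protein Thbs1 (-1.29), the GTPase Rac3 (-1.21) and Myo6, a myosin that moves to the minus end (-0.97). The rises were the formin Fhod3 (1.86), the GTPase exchange factor Vav3 (1.35) and the cross-linker Marcks (1.018). Fhod3 lay at 9.26 and 8.64 in DKO against 7.28 and 6.92 in control. Marcks lay at 12.56 and 12.72 in DKO against 11.52 and 11.73 in control. Of 10 genes listed for the serum response factor pathway, 1 was called (Thbs1), with a median of -0.33. The lowest log2 fold changes of the wider list were in 2 of these genes that were not called, Ankrd1 (-2.93, adjusted p = 0.067) and Ccn2 (-2.88, adjusted p = 0.065), which are named after their values were seen. Ankrd1 lay at 5.70 and 5.55 in DKO against 9.62 and 7.49 in control, and Ccn2 at 8.86 and 9.95 in DKO against 12.98 and 11.59 in control. Srf itself had a log2 fold change of -0.09.

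In DKO against Ovol1 KO, 11 of the 179 fell and 2 rose, or 7.26% called against 2.15% of all genes, while in Ovol1 KO against control limma called 0, and 1 gene had an unadjusted p below 0.05. The 10 largest falls in DKO against Ovol1 KO were Sorbs2 (-2.98), Myh14 (-2.30), Myo1d (-1.95), Eps8 (-1.84), Eps8l2 (-1.41), Rac3 (-1.20), Thbs1 (-1.17), the formin Fmnl1 (-0.97), the adhesion protein Parva (-0.82) and the severing protein Gsn (-0.68). The rises were Fhod3 (1.73) and Marcks (0.91). The count of 13 was far lower without either Ovol1 KO array or either DKO array, and the share of all genes called was also lower.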

How the data were processed

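Values were read from the series' table of 35556 probe sets on 6 arrays. They are intensities on a linear scale, deposited by the authors. Affymetrix Expression Console 1.1.1 and PLIER 2.0 are listed, without a stated use, per the submitters' processing notes. How background was corrected and arrays were scaled is not given in those sources, and no detection call was used. An offset of 16 was added and log2 taken, and arrays were quantile-normalized because their quartiles differed by 0.218 log2, above the limit of 0.2. Fold changes on this scale understate the change of dim genes. Probe sets with 1 symbol (21789) were kept, the brightest per gene, and 1621 with several symbols and 12146 with none were left out. Group means were estimated together from the 6 arrays in limma 3.58.1 in R 4.3.3, with eBayes and a variance trend (3 residual and 3.89 prior degrees of freedom). The fit was tested on simulated data with planted changes of 1 and 2 log2 units and independent noise. Smaller changes and the sex-linked split were not simulated. Full values were given for members called in a comparison or differing by at least 1 log2 unit, and for others where a comparison needed them. Of the wider list up to 10 rises and 10 falls were named. The members and lists were chosen with earlier results of these data known. Alternatives were other offsets, the deposited values, a filter on dim genes, other eBayes settings, mean over probe sets, fewer arrays, the replicate number as a block, Xist as covariate and each array left out. The number of arrays limits precision. Arrays are described as biological replicates in the labels. Markers of keratinocytes (11 of 12 measured; 2 higher, 0 lower), smooth muscle, fibroblasts, melanocytes, endothelium and immune cells (0 of 6 called) were those fixed for the analysis.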

Additional observations from a re-analysis of the deposited data

How the results depend on the processing

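The counts of members and of wider-list genes called, the members' median and each member's log2 fold change were recomputed under 16 alternatives, and no called member changed sign in DKO against control. Motif shares, counts without overlap, medians by role and marker sums were not recomputed. Of the 6 members called in DKO against control, the count was 1 with no variance trend, 3 with only the 4 arrays compared, 0 with Xist as a covariate and between 0 and 6 with 1 array left out. Over all genes 3.2% were called in the main fit of that comparison. The share was 2.87% with no variance trend, 2.33% with only the 4 arrays compared and 0.0401% with Xist as a covariate. With 1 array left out the share over all genes also fell, except without control 2, where it rose. Xist differed widely within a group only in Ovol1 KO, so the Xist fit tells it from genotype mainly by those arrays. The members' median kept its sign, between -0.51 and -0.20 with 1 array left out, and was -0.34 with Xist as a covariate. Calls were kept in 14 of 16 alternatives for Fscn1, 11 for Actn1, 11 for Lasp1, 8 for Actn4, 8 for Enah and 7 for Cttn. With Xist as a covariate Fscn1 had -1.32 (limma adjusted p = 0.18) and Lasp1 -0.58 (0.75). Of the wider list in that comparison, 29 were called with the replicate block, 0 with Xist and between 5 and 20 with 1 array left out. In DKO against Ovol1 KO the members called were 2 on the deposited values, 0 with no variance trend, 2 with a robust prior, 4 with only the 4 arrays compared, 5 with the replicate block, 0 with Xist and between 0 and 4 with 1 array left out. The wider list gave 8 with no variance trend, 24 with the replicate block, 1 with Xist and between 1 and 19 with 1 array left out. Over all genes, 2.15% were called in DKO against Ovol1 KO in the main fit. The share was 2.47% on the deposited values, 1.8% with no variance trend and 2.17% with a robust prior. It was 3.7% with only the 4 arrays compared, 4.04% with the replicate block and 0.366% with Xist. With 1 array left out this share was lower without any DKO or Ovol1 KO array and higher without either control. The cause of these moves was not tested, beyond the fewer arrays of the fits that leave some out. In Ovol1 KO against control every alternative gave 0 members and 0 genes of the wider list called.

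With the replicate number as a block, 9 members were called in DKO against control, 8 lower and 1 higher. Over all genes the share called also rose, to 5.36% from 3.2% without the block. Arrays share a number and no stated pairing. Deviations from the group means correlated at 0.69 between Ovol1 KO and control, 0.15 between DKO and control and 0.087 between DKO and Ovol1 KO over all genes, a hint from the data and not from the design.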
